A study of Mus musculus with 5 samples.

Results

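The loci described here are rows of the deposited mouse germ cell expression table that carry no gene symbol and lie over a gene that does. They were chosen by 3 criteria: no symbol, a mean normalized count of at least 10 over the 5 libraries, and an interval on chromosomes 1 to 19 (build mm10) that overlaps at least 1 row with a symbol, strand ignored. This rule found 5107 unnamed loci among the 56324 rows of the table, 32111 of which have no symbol, and they fell on 3502 named rows, called host genes below. The rule used the level of each locus but not the difference between cell types, although a locus with reads mainly in 1 cell type enters only through that cell type. Of the 5107 loci, 3319 had a mean of at least 10 in both cell types, 932 only in spermatids and 856 only in spermatocytes, so the counts below describe the loci that passed.

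Spermatocytes (2 samples) and spermatids (3 samples) came from male C57Bl/6 mice of 12 weeks, and the cells were separated by sedimentation at unit gravity. Libraries of polyadenylated RNA were made with a stranded kit from total RNA extracted with a kit that also keeps small RNA. The title of the series names intron retention in meiosis as its subject. No label ties a sample to an animal. The spread that enters each p-value is that among these 5 samples, and it may be technical. The reads counted in the rows of the table numbered 52784231 to 84361908 per library. The unnamed loci made up 2.94% and 3.04% of the normalized counts in the spermatocyte libraries and 2.01% to 2.05% in those of spermatids.

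Spermatocytes are the germ cells in meiosis, and spermatids are the haploid cells that later shape themselves into sperm. A pre-mRNA is copied with its introns, and RNA that keeps an intron is often held in the nucleus. Long non-coding RNAs are abundant in the testis, where many are transcribed from the strand opposite to a protein-coding gene or from inside its introns. Spermatocytes from the pachytene stage onward also cut long precursor transcripts into piRNAs, the small guide RNAs of PIWI proteins, and most piRNAs begin with a uridine. Spermatids are known for using polyadenylation sites close to the stop codon, which leaves many of their mRNAs with short 3′ UTRs.

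Among the unnamed loci were 302 that spanned only 20 to 40 bases, and their spans peaked at 29 to 31 bases. The sequences of 119 of them could be read from exactly 1 gene in the GENCODE vM21 transcripts. The 10 shown here come from Gm5577 and Gm10069, hosts crowded with such loci, and let the ends be compared. They were chosen after their values were seen, as the 5 readable loci of 26 to 30 bases with the highest mean in each host. Capitals mark a first base that is T and a last base that is A, and the sequence follows the strand of the annotated transcript, since the table gives no strand.
Gm5577 chr6:87983208-87983237 (+): gctgttttttcctaaggcatgtaaacatcA
Gm5577 chr6:87988286-87988315 (+): aatccgaaaggtcttgaatagtggggctcA
Gm5577 chr6:87989141-87989166 (+): accctggagatcttgaaccctaggtA
Gm5577 chr6:87989444-87989470 (+): TttggagagcacctgctcaaatttccA
Gm5577 chr6:87988544-87988571 (+): gggcacttggaagtctattagctaaggA
Gm10069 chr6:128448145-128448173 (-): TcaaaagtagccgtcgctcccaacagtcA
Gm10069 chr6:128447367-128447396 (-): attgcaacatagagaatgaatttcttcccA
Gm10069 chr6:128448191-128448219 (-): gcaagtacgtcaagcccttcatgagccaA
Gm10069 chr6:128447783-128447812 (-): aacagaaacagttctatgcctttgaggagA
Gm10069 chr6:128447198-128447223 (-): TcaaggaaacaaagccatctaaaccA
The last 4 loci of the Gm5577 group lie in Gm44168, a gene of GENCODE's TEC class (evidence still to be tested) on the same strand, and the Gm10069 loci lie in Gm18009, a processed pseudogene on the strand opposite to the antisense gene Gm10069. All 10 readable short loci of Gm5577 and all 6 of Gm10069 ended in A, against an A content of 28.4% and 34.9% in the same sequences. Read on the other strand, such a sequence begins with T. Loci of Cbl, another crowded host, were read in the same way and are not printed. Of its 8 readable loci, 7 began with T and 1 ended in A, against a T content of 32.3% and an A content of 23.8%. Over all 119 readable short loci, 40 began with T, 75 ended in A and 15 did both, with a T content of 21.6% and an A content of 26.5%.

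Across all 5107 loci, 1684 were higher in spermatids (33.0%) and 1986 were lower (38.9%), by limma on log2(normalized count + 1) with a Benjamini-Hochberg adjusted p under 0.05. Among all 28370 rows tested the shares were 40.6% higher and 36.5% lower, 77.1% in either direction, so the share that rose was below and the share that fell slightly above those of the whole table. The values of the 2 cell types did not overlap for 1877 loci that were higher in spermatids and 2321 that were lower, and for 85.8% of all rows tested. Host genes had 46.9% higher and 32.6% lower among 3447 tested. The 4464 unnamed loci that overlap no named row had 1270 higher and 2489 lower. The median log2 fold change was -0.26 for the overlapping loci, -1.54 for the others without a symbol and 0.07 for all rows tested. These differences between classes of row were not tested. With each library rescaled to the same total, the split became 1309 higher and 2584 lower, and the median of all rows tested moved to -0.57. Leaving out the 12 host genes with 10 or more loci made the numbers nearly equal, 1677 higher and 1665 lower.

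Each locus was then set against its host gene, the named row with the longest overlap. While 4733 loci overlapped 1 named row, 374 overlapped 2 or more, and for these only the host was compared. The loci of Sh3rf1, Tulp2, Dfna5, Prm2 and Tmem242 described below are among the 374, with 2 named rows each. Locus and host could both be tested for 5048 loci. Of these, 2402 moved in the same direction as their host, 1280 higher in spermatids and 1122 lower. Opposite directions were called for 678 loci, of which 503 were lower while the host was higher and 175 were higher while the host was lower. The 678 became 407 without spermatocyte replicate 1 and 412 without replicate 2. In the plot of unnamed loci against host genes the vertical stripes are hosts with many loci. The correlation of the 2 log2 fold changes was 0.60 (Pearson) and 0.57 (Spearman) over 5048 loci, which share libraries, and often a host, and are not independent. For unnamed loci outside named rows, the correlation with the nearest named row was 0.70 (Pearson) for 1728 loci within 5000 bases and 0.26 for 2736 farther away.

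**Figure D1:**
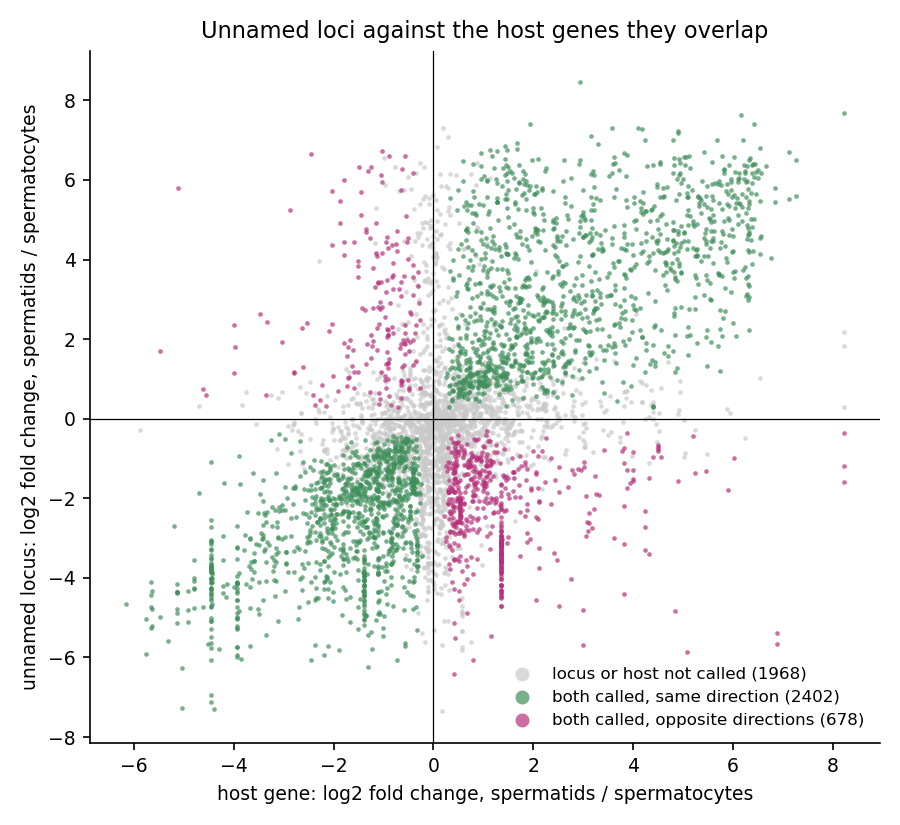
Log2 fold change (spermatids over spermatocytes) of each of 5048 unnamed loci against that of its host gene, 1 point per locus. The 2402 green points were called in the same direction as their host and the 678 magenta points in the opposite direction; grey points had a locus or host that was not called.

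The size of the host's change went with that of the locus. In hosts with fewer than 10 loci, where the host was at least 4-fold higher in spermatids, 736 of 966 loci were higher and 84 were lower, beside 40.6% and 36.5% of all rows tested. Where the host was at least 4-fold lower, 308 of 384 loci were lower and 28 were higher. Where the host was not called, 202 of 939 loci were higher and 324 lower. A test of the ratio of locus to host in each library found it higher in spermatids for 893 loci and lower for 1608. Lower ratios numbered 1052 without spermatocyte replicate 1 and 1002 without replicate 2. Over all 5094 pairs tested, the backgrounds for these calls are 17.6% and 31.9%, and the loci themselves make up nearly all of those pairs. Over alternative pseudocounts (the number added before the log2), fits, filters, loci and hosts, lower ratios numbered 578 to 2034 and higher ratios 435 to 1108.

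The strand setting of the read counts is not given in the sources used here. Reads of a locus and of a host that overlap on opposite strands therefore cannot be told apart, and reads inside both intervals may count toward either row. This applies to every pair described here.

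Among the loci with the largest rise, several had no read, or nearly none, in spermatocytes. An interval at the 5′ end of Nol4 (chr18:23039206-23042328), a gene for a nucleolar protein, stood at normalized counts of 8.62 and 1.34 in spermatocytes and 2208, 1504 and 1390 in spermatids. The groups were far apart, and its log2 fold change was 8.46 ± 0.57 (SE; limma adjusted p = 1.7e-05), against 2.94 ± 0.14 for Nol4 itself. Klf5 encodes a Krüppel-like transcription factor. A locus over it (chr14:99303152-99304342), 72.2% of it 3′ UTR, had 0 reads in both spermatocyte libraries and counts of 217, 159 and 220 in spermatids. Against a floor of 3 reads in each spermatocyte library it was at least 75.7-fold higher. Klf5 itself rose by 6.15 ± 0.22 on the log2 scale, from 52.8 and 34.9 to 2636 to 3568.

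Of the 8 loci with the largest rise, 5 lay inside introns. A 443-base locus in an intron of Glis1 (chr4:107596786-107597228), a zinc finger transcription factor gene, had 0 reads in spermatocytes and counts of 181, 185 and 145 in spermatids, at least 65.0-fold higher on the same floor. Glis1 rose much less, by 1.94 ± 0.39 on the log2 scale, and the ratio of locus to host rose by 5.48 ± 0.44 (limma adjusted p = 0.00052). In an intron of Gnai1 (chr5:18350316-18350923), the gene of an inhibitory G protein subunit, a locus went from 6.46 and 0 to 454, 456 and 392. Gnai1 stood at 89.4 and 127 in spermatocytes and at 116 to 133 in spermatids and was not called (log2 fold change 0.20, adjusted p = 0.47).

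The loci of Ttll7, Rap1gap2 and Iqgap2 lay in genes that themselves rose strongly. A locus in Ttll7 (chr3:146969755-146971772), whose product adds glutamate chains to tubulin, rose by 7.41 ± 0.72 on the log2 scale (adjusted p = 9.3e-05) and Ttll7 by 6.41 ± 0.19. The ratio of that locus to Ttll7 was not called (adjusted p = 0.24). The locus in Rap1gap2 (chr11:74477300-74480310), a Rap GTPase activator gene, rose by 7.30 ± 0.68, and its host by 4.10 ± 0.20. An interval of Iqgap2 (chr13:95707474-95709045), which encodes a scaffold protein, was 10.4% exonic and had 3 reads in spermatocytes. It was 243-fold higher in spermatids, with a 95% Poisson interval of 83.1 to 1178 that covers counting error only.

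Some of the loci that fell most lay in genes that themselves fell, among them a marker of Sertoli cells, the somatic cells that nurse the germ line. A locus at chr2:105153846-105157238 in an intron of Wt1, a transcription factor gene that marks Sertoli cells, had counts of 222 and 314 in spermatocytes and 0, 0 and 4.19 in spermatids. Wt1 itself went from 857 and 1064 to between 23.1 and 32.7. A locus over part of Gatm (chr2:122595714-122600250), the gene of an enzyme of creatine synthesis, went from 878 and 1208 to 0, 13.9 and 17.8, and one in an intron of Itga4 (chr2:79322906-79324089), an integrin gene, from 141 and 175 to 0, 5.95 and 1.05. Among the 14 Sertoli markers examined, 14 were lower in spermatids, and their summed count was 79897 and 104566 in spermatocytes against 2981 to 4215 in spermatids. For the 9 Leydig cell markers tested, 8 were lower. Of 13 myoid, endothelial, macrophage and blood markers tested, 9 were higher in spermatids and 1 was lower, with summed counts of 680 and 583 in spermatocytes against 2715 to 4086 in spermatids; their part in the loci that rose was not tested. The part of the Sertoli and Leydig cells in the fall of the loci was not tested. In bulk RNA, fewer cells of a type and less RNA per cell cannot be told apart.

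Other loci fell sharply while their host did not fall or fell less. A locus matching Gm44424, a TEC gene opposite to Pon2 (chr6:5279655-5281480), the gene of a paraoxonase, had counts of 192 and 138 in spermatocytes and no read in any spermatid library. It was at least 45.9-fold lower against 3 reads in each spermatid library, whereas Pon2 stood at 2301 and 2201 in spermatocytes and 2271 to 3016 in spermatids and was not called (adjusted p = 0.27). A locus in an intron of Kif2a (chr13:107008124-107011593), a microtubule-depolymerizing kinesin gene, went from 137 and 95.2 to 0, 3.96 and 0. Kif2a rose by 0.80 ± 0.12 on the log2 scale, so the ratio fell by 6.87 ± 0.82 (adjusted p = 0.0018). In Magi2 (chr5:19784526-19787145), a scaffold protein gene, an intronic locus went from 127 and 129 to 0, 0 and 6.29, while Magi2 fell by 0.73 ± 0.11. The interval over the 5′ end of Zfp14 (chr7:30050966-30052227), a zinc finger gene, fell by 6.07 ± 0.69, and Zfp14 by 2.44 ± 0.18.

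Some of the clearest pairs ran in opposite directions. An intronic locus of Etl4 (chr2:20214319-20216185) went from 2.15 and 0 to 285, 138 and 144, while Etl4 dropped from 323 and 378 to between 59.7 and 69.8. The ratio of locus to host rose by 9.10 ± 0.63 on the log2 scale (limma adjusted p = 0.00037). In Sh3rf1 (chr8:61286967-61289937), the gene of a ubiquitin ligase, a locus went from 5.39 and 6.04 to 177, 351 and 263 as the host fell from 469 and 728 to between 57.4 and 103. A locus in Pde4d (chr13:109884220-109884870), a cyclic AMP phosphodiesterase gene, rose from 6.46 and 6.71 to 360, 439 and 412. Pde4d fell by 2.03 ± 0.31. The locus in Hpse2 (chr19:43266935-43277654), a heparanase-like gene, matches the antisense RNA AC124716.2 and rose by 6.00 ± 0.55, while Hpse2 fell by 1.80 ± 0.24.

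The row of Cbx5, the gene of a heterochromatin protein, reaches beyond the annotated gene. The unnamed locus on it (chr15:103102284-103104602) has the span of the lincRNA Gm28265, outside Cbx5 in GENCODE. It went from 29.1 and 21.5 to 1888, 2364 and 2063, while the Cbx5 row fell from 9226 and 8336 to between 2855 and 3459. No library of one group came near the other in either row.

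The reverse pattern, a falling locus on a rising host, was the commoner kind. Of its 503 loci, 110 lay in the 12 hosts with 10 or more loci. Over the 5048 loci the host was higher for 2377 and lower for 1706. With 1 locus per host, the one with the highest mean, 277 fell on a rising host and 129 rose on a falling host. An interval over the 5′ end of Dpf3 (chr12:83486135-83489022), the gene of a chromatin remodelling subunit, went from 108 and 131 to 14.0, 3.96 and 0. Dpf3 rose from 127 and 138 to between 3506 and 4081, and the ratio fell by 9.68 ± 1.07 (adjusted p = 0.0013). Without spermatocyte replicate 2 the fall of the locus itself lost its call (adjusted p = 0.058). Tulp2, a tubby-like gene of spermatids, rose from 8267 and 7896 to between 106536 and 123853. Its intronic locus (chr7:45508406-45511178) fell from 257 and 318 to 15.5, 19.8 and 6.29. The locus over Dfna5 (chr6:50191465-50194231), which encodes a gasdermin, lay to 74.1% in exons of retained-intron transcripts and went from 136 in both spermatocyte libraries to 10.9, 40.6 and 16.8, as Dfna5 rose by 4.23 ± 0.21.

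The long non-coding genes 4930568A13Rik and 4933406J09Rik showed the same. 4930568A13Rik, a lincRNA (chr5:13748112-13808344), spans Speer3, a testis gene of a rodent family, on the other strand. It dropped from 361 and 445 to 38.8, 35.7 and 36.7, while Speer3 went from 93.7 and 102 to between 1758 and 2326. 4933406J09Rik (chr6:134308951-134403416), of the antisense class, covers the 5′ end of Bcl2l14, an apoptosis-related gene, and fell from 241 and 245 to 88.4, 60.5 and 62.9. Bcl2l14 rose from 630 and 446 to between 25301 and 45469.

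**Figure D2:**
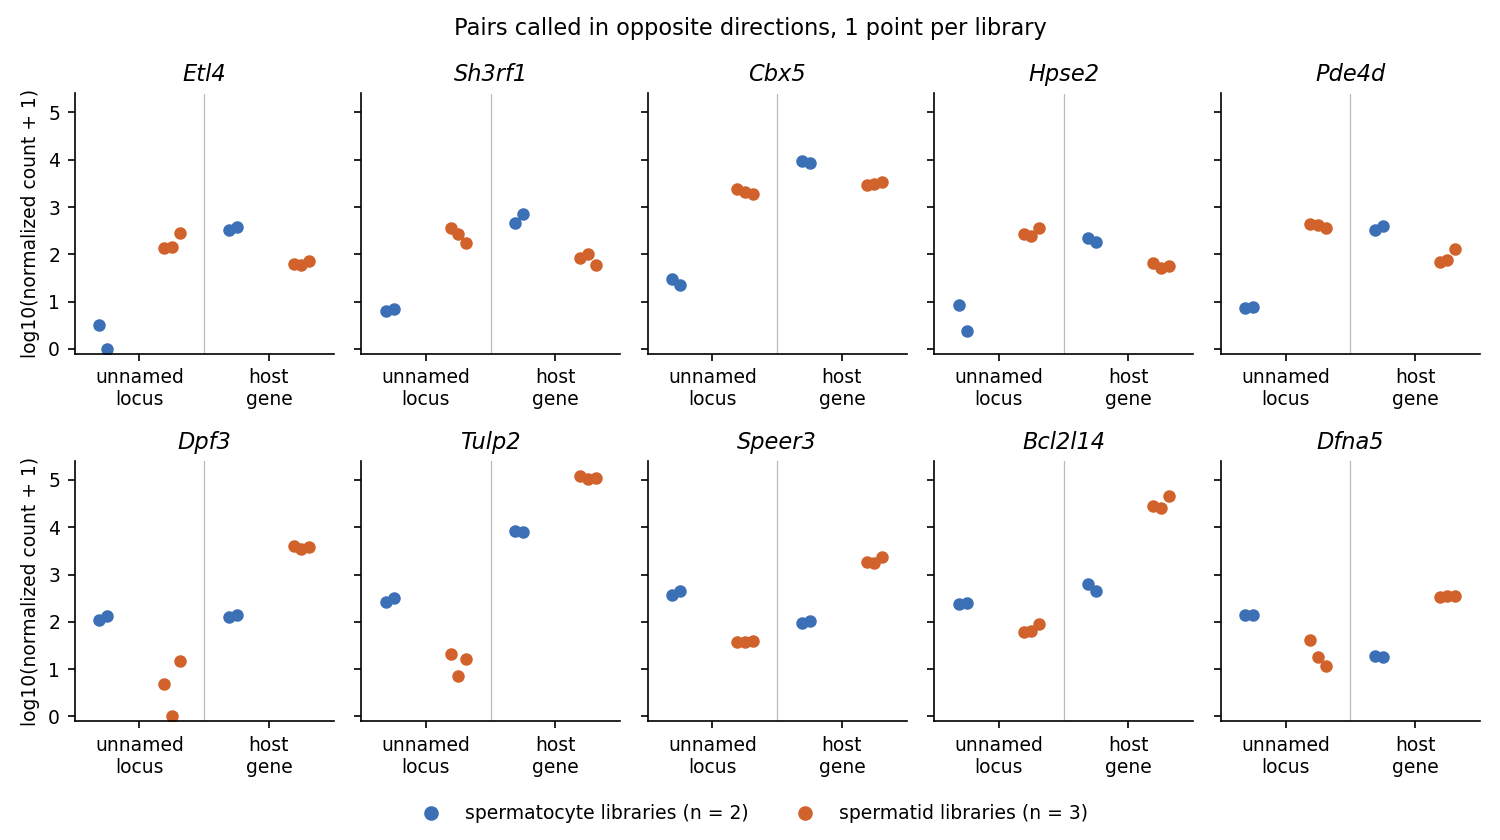
Normalized counts, as log10(count + 1), of the 10 pairs with the largest opposite changes; each point is 1 library, with 2 of spermatocytes (blue) and 3 of spermatids (orange). In the top row the unnamed locus is higher in spermatids and the host lower, in the bottom row the reverse, and in no locus or host shown do the groups overlap.

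Loci were also grouped by their position within the host. In GENCODE vM21, which has the same build, 2614 loci lay inside an intron of the host, 2222 touched an exon, 224 lay in the host's row but outside its annotated gene, and the hosts of 47 were not matched. Of the intronic loci in hosts with fewer than 10 loci, 880 of 2395 were higher in spermatids and 828 were lower. Relative to the host, 488 of 2380 were higher (20.5%) and 806 lower (33.9%), near the 17.6% and 31.9% of all pairs, with a median log2 ratio of -0.54. The 806 dropped to 490 without spermatocyte replicate 1 and 461 without replicate 2. With a pseudocount of 0.5 they became 756, and with a pseudocount of 10 they became 1061. Loci that were mostly coding sequence moved nearly as the host did: 6 of 121 were higher relative to it and 8 lower, and such a locus and its host row share exon bases.

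Loci mostly in the 3′ UTR of the host were lower in spermatids more often than higher. Of 405 such loci in hosts with fewer than 10 loci, 70 were higher (17.3%) and 211 lower (52.1%), with a median log2 fold change of -0.79, against -0.14 for their hosts; among all rows tested 36.5% were lower. Relative to the host, 17 of 402 were higher and 107 lower (26.6%), against 31.9% lower over all pairs. The 107 became 104 with a pseudocount of 0.5 and 132 with a pseudocount of 10. Equal library totals gave 44 higher and 275 lower for the loci themselves. Leaving out either spermatocyte library lowered the 211 to 153 (replicate 1) or 141 (replicate 2).

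The following 3′ UTR loci were chosen after their values were seen, from those with a mean of at least 100. The locus in Dync1li2 (chr8:104418491-104418847), which encodes a light intermediate chain of dynein, went from 467 and 356 in spermatocytes to 6.20, 8.92 and 7.34 in spermatids. The host was not called (log2 fold change -0.16), and the ratio fell by 5.44 on the log2 scale (limma adjusted p = 0.00027). In Eif4ebp2 (chr10:61429344-61430478), the gene of a repressor of cap-dependent translation, the locus went from 721 and 803 to 37.2, 66.4 and 58.7, and the host fell by 0.93. A locus in Hspa4l (chr3:40791043-40792644), a germ cell chaperone gene, went from 723 and 568 to 175, 111 and 179, while Hspa4l rose by 0.91. Derl1, Phf10 and Mapk8ip2 each had a 3′ UTR locus that fell by 2.25 to 2.55 on the log2 scale and a host that was not called. A lower ratio was also called for loci that did not fall. The loci in Coro2a and Prox2 were not called (log2 fold changes 0.23 and -0.03), while their hosts rose by 5.87 and 5.02. These loci match Gm16731 and Prox2os, genes on the strand opposite to the host, and are 56.4% and 53.2% 3′ UTR of the host. In Ypel3 the locus rose by 4.55 and the host by 5.59. Of 180 such 3′ UTR loci with a mean of at least 100 and a tested host, 43 had a ratio that was called. The ratio was lower for 34 of the 180 (18.9%) and higher for 9 (5%), beside 31.9% and 17.6% over all pairs. The largest rise of a ratio was in Xpo7 (chr14:70659383-70660673), an exportin gene, where the locus rose from 3.23 and 1.34 to 243, 252 and 229, while Xpo7 fell by 0.63.

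**Figure D3:**
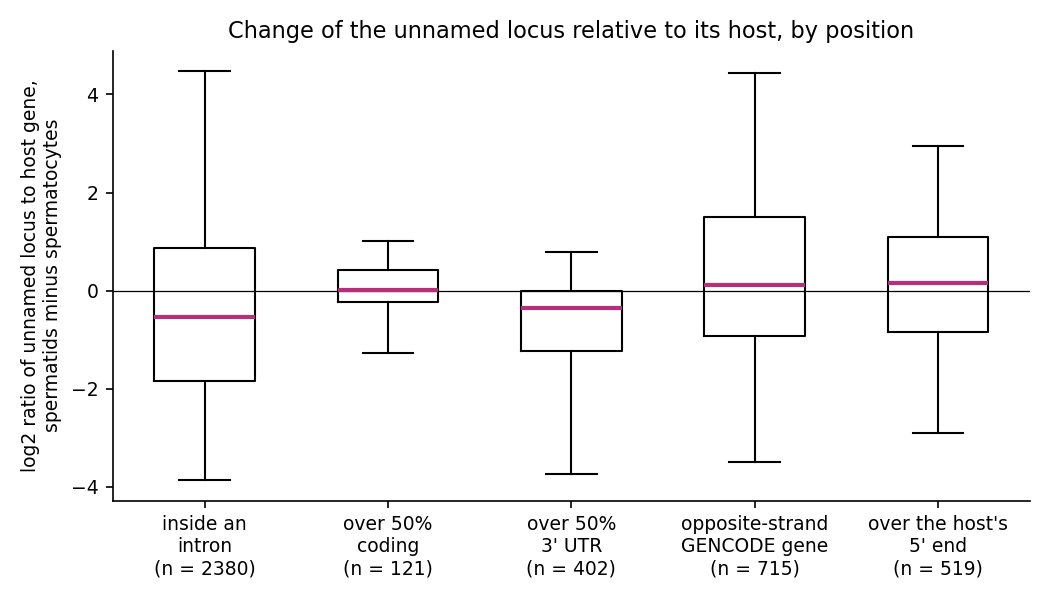
Change in the log2 ratio of unnamed locus to host gene, spermatids minus spermatocytes, for 5 classes of position in hosts with fewer than 10 loci (classes can share loci). Boxes span the quartiles, the coloured line is the median and whiskers reach the 5th and 95th percentiles; the median is -0.54 in introns, 0.02 in coding sequence and -0.35 in 3′ UTRs.

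Annotated transcripts on the other strand were higher in spermatids more often than lower. A GENCODE gene of nearly the same span (at least 80% overlap in both directions) existed for 1136 loci, and 744 of these lay opposite to the host. Of the 744, 349 were higher (46.9%) and 179 lower (24.1%), with a median log2 fold change of 0.48, beside 40.6% and 36.5% of all rows tested. The same background applies to the counts that follow, and no difference from it was tested. Within GENCODE's antisense class alone, 208 of 398 were higher and 78 lower, while their hosts had 215 higher and 100 lower among 387 tested. The 385 loci that match a gene on the host's own strand had 148 higher and 115 lower. The 3971 loci without such a match had 1182 higher and 1691 lower.

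A divergent pair stood at the 5′ end of Tdrd5, which encodes a Tudor protein of germ granules needed for piRNA production. The unnamed locus (chr1:156303486-156304959) has the span of the antisense RNA 4930518J20Rik and overlaps the 5′ end of the Tdrd5 row. It had counts of 6190 and 5636 in spermatocytes and 11873, 8892 and 9095 in spermatids. Tdrd5 went from 16021 and 16170 to 716, 583 and 682. The locus rose by 0.74 ± 0.14 on the log2 scale (adjusted p = 0.0028) and Tdrd5 fell by 4.61 ± 0.12, so the 2 rows moved apart by 5.35. With equal library totals the rise of the locus was 0.09 and lost its call (adjusted p = 0.40), and after quantile normalization it was 0.04 (adjusted p = 0.74). The RefSeq promoter of Tdrd5 (GRCm38.p6), from 250 bases before to 50 after the start, is shown because both rows lie on it. Capitals mark the 113 bases that the unnamed locus also covers.
Tdrd5 promoter chr1:156303299-156303598 (-): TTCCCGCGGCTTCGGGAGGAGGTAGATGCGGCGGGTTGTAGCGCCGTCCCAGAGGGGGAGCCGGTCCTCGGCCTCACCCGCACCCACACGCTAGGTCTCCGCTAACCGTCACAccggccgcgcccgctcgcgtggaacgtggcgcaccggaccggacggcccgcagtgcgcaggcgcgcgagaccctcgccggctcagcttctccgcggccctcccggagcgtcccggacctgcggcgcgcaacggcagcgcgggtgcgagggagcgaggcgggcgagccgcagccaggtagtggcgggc
The window was searched on both strands for 3 motifs: the cyclic AMP response element TGACGTCA, its short form TGACG and TAACNG, the core bound by MYB proteins. It held 1 TAACNG match on the Tdrd5 strand and 1 TGACG match on the other, and the 2 overlap. Among 31396 autosomal promoter windows of the same length, 23.4% held TAACNG and 21.0% TGACG.

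A second unnamed locus of Tdrd5 lay inside an intron (chr1:156290102-156290747) and followed the gene. It went from 130 and 111 to 9.30, 1.98 and 2.10, and its log2 fold change of -4.73 was near the -4.61 of Tdrd5. The list of 29 germ granule and piRNA genes held 9 loci in 7 genes, these 2 included, with 1 higher and 4 lower, beside 40.6% and 36.5% of all rows tested. In an intron of Piwil1, which encodes a PIWI protein, a locus fell by 1.62 on the log2 scale while Piwil1 fell by 4.20. The locus in an intron of Pabpc1, a poly(A)-binding protein gene, fell by 2.49 as the host rose by 0.40.

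Genes of meiosis and recombination held 12 loci in 10 of the 41 listed genes, 7 of them higher and 4 lower, although 7 of the 12 had a host that was lower. For this list and those below, the shares over all rows tested are 40.6% higher and 36.5% lower, and no list was tested against them. Brca2, a recombination repair gene, held 2 of these. The locus across its 3′ end (chr5:150568588-150570329) had 312 and 317 in spermatocytes and 1070, 1359 and 1209 in spermatids, and lies entirely over annotated exons, 52.1% of it over exons of retained-intron transcripts only. The other lies in an intron, matches Gm42531 and went from 146 and 140 to 822, 1014 and 962. Brca2 itself fell from 4560 and 4080 to between 2887 and 3401. A locus over the 5′ end of Sycp2, which encodes a protein of the synaptonemal complex axis, rose by 1.57 (adjusted p = 7.7e-05) while Sycp2 fell by 1.74. An intronic locus of Brdt, the gene of a testis bromodomain protein, fell from 848 and 752 to 104, 197 and 193, as Brdt rose by 0.40.

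Splicing factor genes held the most loci of the 8 gene lists. There were 36 loci in 22 of the 67 listed genes, with 3 higher and 21 lower and a median log2 fold change of -1.38, and 20 of the 36 had a host that was lower. Their share of lower loci, 21 of 36, stands beside 36.5% of all rows tested and was not tested for a difference. Srsf4, a serine and arginine rich splicing factor gene, held 4 loci and all 4 fell. The one with the highest mean (chr4:131878628-131883237) matches A930004J17Rik and went from 1668 and 1495 to 375, 263 and 376, and Srsf4 fell by 1.26 ± 0.10. In Ptbp2, a repressor of neuronal exons, both loci fell, the larger from 715 and 755 to 140, 95.2 and 75.5. A locus in Hnrnpm (chr17:33655894-33657557) fell by 4.08 while the gene fell by 3.15, and 3 further loci of 28 to 31 bases in its introns had log2 fold changes from -3.60 to -3.24.

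Only 3 of the 36 splicing factor loci rose. One in Rbfox2 (chr15:77084397-77096314), a regulator of tissue-specific exons, matches the antisense RNA 1700109K24Rik and went from 8.62 and 18.8 to 498, 639 and 476, and a second lay in an intron of the same gene. In an intron of Celf2 a locus had a total of 1 read in spermatocytes and counts of 23.3, 35.7 and 38.8 in spermatids, while Celf2 was not called (log2 fold change -0.26). In an intron of Srpk2, which encodes a kinase of splicing factors, a locus fell by 2.45 as Srpk2 rose by 1.83.

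Chromatin genes held 27 loci in 19 of 69 genes, with 6 higher and 12 lower (44.4%, near the 36.5% of all rows tested). Intronic loci of 2 subunits of the BAF remodelling complex rose: in Arid1a from 19.4 and 14.8 to 526, 694 and 682 while Arid1a was not called (log2 fold change 0.13), and in Arid1b from 4.31 and 6.04 to 198, 262 and 193 while Arid1b rose by 1.09. The 3 loci of Arid2, a related gene on the same list, all fell. Their log2 fold changes were -0.97, -2.52 and -2.95, against -0.63 for Arid2. Of the 4 loci of Ezh2, the methyltransferase of Polycomb, none was called higher although the gene rose by 1.07: 2 fell, by 1.06 and 1.88, and the others stood at 0.80 and -0.02 (limma adjusted p = 0.07 and 0.96). The locus with the highest mean on the list matched Gm20616 opposite to Smarca2 and went from 1366 and 1254 to between 1906 and 2273. With equal totals its log2 fold change of 0.64 became -0.00943, and the call was lost.

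Late germ cell genes held 2 to 7 loci per list. The lists have 32 transcription regulators, 39 sperm tail genes, 22 acrosome genes and 12 nuclear condensation genes. The list of transcription regulators had 7, with 4 higher and 2 lower (40.6% and 36.5% of all rows tested), and all 7 had a host that was higher. Tbpl1, a germ cell relative of the TATA-binding protein, held 3 of these: 1 was not called (0.07) but was lower with equal totals (-0.58, limma adjusted p = 0.0021) and quantile normalization (-0.49, adjusted p = 0.0074), 1 across the 5′ end fell by 1.25, and 1 in an intron fell by 3.66 from 622 and 609 to between 37.7 and 69.8. Sperm tail genes had 6 loci with 3 higher, 2 of them in Odf2, a gene of the outer dense fibres, whose loci rose by 1.42 and 1.89 against 1.63 for the gene. A locus on a second row named Odf2 (chr2:29825564-29827253) was not called (-0.18), nor was that row (0.32). Acrosome genes had 4 loci, 2 higher and 1 lower. The locus with the highest mean among these, at the 5′ end of Pick1, stood at 590 and 568 against 443 to 665 and was not called. It was called lower with equal totals (-0.74, limma adjusted p = 0.026) and quantile normalization (-0.51, adjusted p = 0.039). A second locus of Pick1 (chr15:79245576-79245989), 97.1% of it in exons of retained-intron transcripts only, went from 32.3 and 29.5 to between 201.2 and 245.2.

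The list of nuclear condensation genes had 2 loci, in Prm2 and Spata6, and both rose. The locus over Prm2 (chr16:10791059-10798060), a protamine gene, had 1262 and 995 in spermatocytes and 132251, 32696 and 36429 in spermatids, and 10.4% of it lies in the Prm2 row. Spermatid replicate 1 was well above the other two, as it was in Prm2 itself (583221 against 140587 and 140411). Summed counts of 10 spermatid markers, Prm2 among them, were 2065430 in that library and 772481 to 812636 in the other two. Prm1, Tnp1, Tnp2, Akap4 and Odf1 were also well above there, and Tssk2 less so. Tssk1, Acrv1 and Spaca1 were not: Tssk1 stood at 58413 in that library and at 61205 and 55271 in the others.

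Prm2 was also among the 5 loci with the highest mean. The highest of all was an interval at chr1:24613188-24614814 in the row of Lmbrd1 but outside the annotated gene, at 193468 and 217467 in spermatocytes and 90523, 81396 and 51179 in spermatids. GENCODE places the pseudogenes Gm28437 and Gm10925 there. The interval is known as a nuclear copy of mitochondrial DNA. How the authors' counting split reads between near-identical copies is not known, so this value is uncertain. The locus over the 3′ end of Tmem242 (chr17:5404121-5419652) stood at 34262 and 30589 against 30205 to 34845 and was not called, while Tmem242 fell by 1.13. With equal totals this locus was called lower (-0.65, limma adjusted p = 0.00019), as it was after quantile normalization (-0.77, adjusted p = 6.6e-05). One inside the joint row of 9030025P20Rik and Gm3435 had 15527 and 26422 against 23813 to 33178 and was not called (adjusted p = 0.13), but was called higher without spermatocyte replicate 2 (0.83, limma adjusted p = 0.028). The locus in 1700003E16Rik rose by 1.42 ± 0.14, as the host did by 1.40 ± 0.12.

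A small number of host genes carried many loci. Of the 3502 hosts, 2650 had 1 locus and 852 had more, and in 112 of these the loci were called in both directions. There were 12 hosts with 10 or more, 337 loci in all, of which 7 were higher and 321 lower (36.5% of all rows tested were lower). Their counts summed to 80090 and 73223 in the spermatocyte libraries and to between 13017 and 13589 in those of spermatids. The fall of these loci was called for 302 to 322 of them whichever library was left out.

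Kcnma1, the gene of a calcium-activated potassium channel, had 94 loci. Of these, 93 lay in the part of its row upstream of the gene annotated in GENCODE. Their nearest bases lay 40138 to 116730 bases before the RefSeq start, and all 93 fell. The median log2 fold change over the 94 was -3.39. The 94 together had 8272 and 7684 in spermatocytes and 1135, 1036 and 1254 in spermatids. Kcnma1 itself rose, from 165 and 170 to 509, 380 and 417. The 1 locus inside the GENCODE gene (chr14:24004991-24005837) rose too, by 2.34. It also lies upstream of the RefSeq start, which is at base 24004205 on the minus strand.

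In Cyp19a1, which encodes aromatase, all 50 loci fell, 49 of them intronic. Their sum went from 3934 and 3644 to 884, 796 and 680, and Cyp19a1 fell from 406 and 375 to between 7.93 and 26.4. One of these loci (chr9:54237722-54237813) had 2 reads in spermatids and was 294-fold lower there, with a 95% Poisson interval of 81.3 to 2424. The loci of Cyp19a1 showed 6 ratios to the host that were higher and 2 that were lower. The summed Sertoli and Leydig markers fell in the same direction, and their part in these values was not tested.

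In several hosts the loci fell while the host moved less or rose. Cbl, the gene of a ubiquitin ligase, rose by 0.53 ± 0.10, from 7737 and 7055 to between 10156 and 11656, whereas all 16 of its loci, each over an exon, fell, from sums of 4359 and 4093 to 882, 971 and 988. Kcnk10, another potassium channel gene, was not called (adjusted p = 0.057), and its 10 intronic loci went from 1434 and 1258 to 27.9, 17.8 and 26.2. In Gm14152 the loci went from 20810 and 19306 to between 1567 and 1895 while the host fell by 0.32. Prkca, a protein kinase C gene, was not called (adjusted p = 0.64), and 13 of its 16 loci fell. The 36 loci of Gm10069 went from 14940 and 13103 to between 660 and 758 while Gm10069 fell by 1.39, and the ratio to Gm10069 fell for all 36. The protocadherin row on chromosome 18 differed from the other 11, with 4 loci higher, 1 lower and no locus of 40 bases or less.

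**Figure D4:**
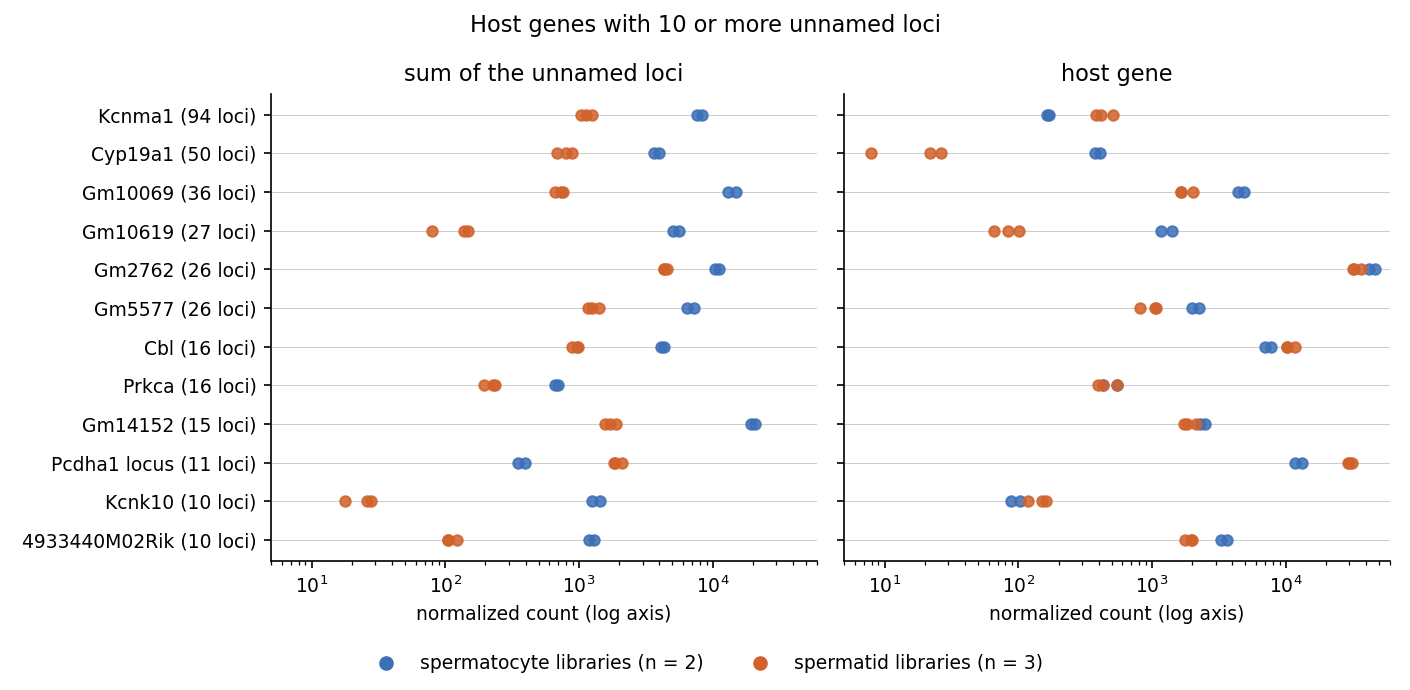
Summed normalized counts of the unnamed loci (left) and counts of the host gene (right) for the 12 hosts with 10 or more loci, on log axes, 1 point per library. In 11 hosts both spermatocyte libraries (blue) lie above all 3 spermatid libraries (orange) on the left, and the protocadherin row, labelled Pcdha1 locus, runs the other way.

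Short loci were concentrated in these hosts. The 12 hosts held 138 of the 302 loci of up to 40 bases, and 82 of the 138 were 29 to 31 bases long. Among the 138, 0 were higher and 136 lower, while the 164 short loci in other hosts had 33 higher and 72 lower. Of the 1312 rows this short tested in the whole table, 81.7% were lower and 6.86% higher. Nearly all of the 1312 are these 302 loci and the unnamed loci outside named rows, so they are not a separate background. Of the 23 readable short loci of 26 to 32 bases in the 12 hosts, 22 began with T or ended in A. Their T content was 26.3% and their A content 28.4%. These 22 include the Gm5577 and Gm10069 sequences printed above. In Cbl 7 of 8 readable loci began with T, against a T content of 32.3%. In the other hosts 30 of 33 loci of 26 to 32 bases began with T or ended in A, with a T content of 22.1% and an A content of 27.2%. Outside named rows, 1007 unnamed loci were this short and 863 of those were lower.

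**Figure D5:**
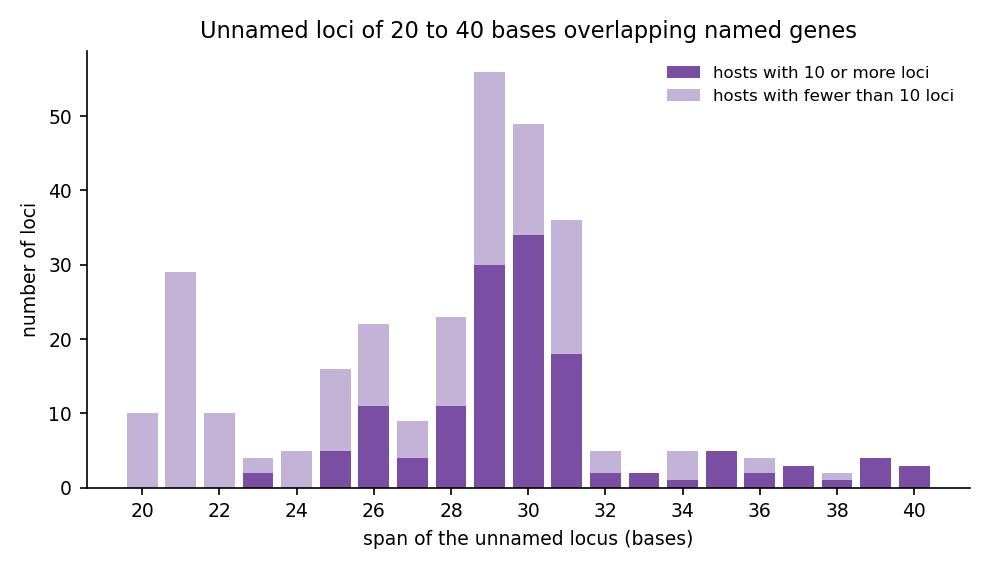
Number of unnamed loci of each span from 20 to 40 bases that overlap a named gene, with hosts of 10 or more loci in dark and other hosts in light purple. The counts are highest at 29 bases (56 loci), 30 bases (49) and 31 bases (36), with a smaller group at 21 bases (29).

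At the minimum mean of 10, the loci just inside had means of 10.0002 (Gm5577, with counts of 25.9, 11.4, 4.65, 4.96 and 3.14 in the order of the libraries) and 10.002 (Desi2). Those just outside had means of 9.993 (Ctbp2) and 9.992 (Fzd5).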

How the data were processed

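The deposited table holds normalized signal values: per the file headers, counts per gene scaled by DESeq with 1 factor for each library. FastQC, Picard, SAMtools, STAR 2.4.0 and mm10 are named in the submitters' processing notes with no role or order. In the sources used here the counting program and its strand setting are not given. Every value was a whole multiple of what 1 read is worth in its library (100% within 0.001), so whole reads were recovered.

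Rows with a mean of at least 10 were log2-transformed after adding 1 and fitted with limma 3.58.1 (R 4.3.3), with an eBayes trend and Benjamini-Hochberg adjustment over all 28370 rows. This scale understates changes of low loci. The ratio test used limma on the difference of the log2 values of locus and host over 5094 pairs. The host was the named row with the longest overlap. Exons, introns and strands came from GENCODE vM21, with 5060 of 5107 host symbols matched, and promoters from RefSeq GRCm38.p6. Where a group had 0 reads the fold is a bound against 3 reads per library, and with 1 to 3 reads it has an exact 95% Poisson interval; both cover counting error only.

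The loci, gene lists and rules were chosen with earlier results of these data known. Named loci were the 8 largest changes per direction and the 5 largest opposite pairs per direction (at least 100 in the higher group, plain host symbol), the 5 highest means and the highest mean of each list. One of the named loci is not reported here. On simulated data the test of the table recovered 25% of 100 rows given a 2-fold change and 76% of 100 given a 4-fold change. The remaining rows of the 28370 were left unchanged there, whereas 77.1% of rows were called in the real data. The adjusted p depends on the share of rows that change, so the recovery in the real data may differ. The ratio test recovered 13.3% and 81.3% of 750 pairs each. Alternatives were other pseudocounts, scalings, filters and hosts, leaving out each library, edgeR 4.0.16 and DESeq2 1.42.0 on whole reads. Summaries used Python 3.11.15, pandas 2.3.3 and numpy 2.4.6.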

Additional observations from a re-analysis of the deposited data

How the results depend on the processing

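With 5 libraries and 2 in one group, depth and replication limit calls on loci of few reads. No paired analysis was possible because the labels carry no replicate numbers that tie samples across groups. A minimum mean of 100 left 740 loci higher and 626 lower, 865 pairs in the same and 234 in opposite directions, and ratios higher for 435 and lower for 578; fewer loci were tested. With 1 locus per host (chosen after seeing the data) 1276 were higher and 1217 lower, the reverse of the order over all loci, 406 pairs were opposite and 977 ratios were lower. Leaving out each library gave 1443 to 1711 higher, 1440 to 2043 lower, 1817 to 2500 pairs in the same and 407 to 722 in opposite directions, and 655 to 900 ratios higher and 1002 to 1635 lower. The low ends for opposite pairs and lower ratios came from leaving out a spermatocyte library (407 opposite and 1052 lower without replicate 1, 412 and 1002 without replicate 2). Among the log2 fold changes of the named loci, 540 recomputed values kept direction and call and 12 changed sign. With the sign kept, 5 gained a call (Tmem242 and Pick1 with equal totals and quantile normalization, 9030025P20Rik // Gm3435 without spermatocyte replicate 2) and 5 lost one (Dpf3, Smarca2 and Tdrd5). Among the sign changes, Tbpl1 gained a call with equal totals and quantile normalization, and Smarca2 lost its call with equal totals. With equal totals 9030025P20Rik // Gm3435 gave -0.199, Smarca2 -0.00943 and Tbpl1 -0.578; quantile normalization gave -0.300 for 9030025P20Rik // Gm3435 and -0.491 for Tbpl1, and TMM factors -0.037 for Tbpl1. Leaving out each library gave -0.0898 to 0.0738 for Tmem242, -0.236 to 0.0562 for Pick1 and -0.0612 to 0.157 for Tbpl1. Tmem242 gave 0.074 without spermatocyte replicate 1, 0.003 without spermatid replicate 2 and 0.038 without spermatid replicate 3, Pick1 0.056 without spermatid replicate 1, and Tbpl1 -0.022 without spermatocyte replicate 2 and -0.061 without spermatid replicate 1. The cause of these changes was not tested. The fall of the Dpf3 locus also lost its call with no filter on the table (limma adjusted p = 0.051).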
